A study of Mus musculus with 10 samples.

Results

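Mitochondrial ribosomal proteins are the nuclear-encoded proteins of the mitochondrion's own ribosome. Their genes were taken as every gene of the deposited count table whose symbol begins with Mrpl or Mrps followed by a digit. This gave 77 of 21866 genes, of which 48 carry the symbol of the large subunit (Mrpl) and 29 that of the small subunit (Mrps). They were followed in 10 RNA sequencing libraries of live mouse retinal cells that stained for CD11b and only moderately for CD45, which the labels call microglia, the resident macrophages of the retina. The CD36-POS group held 5 libraries (numbers 1, 2, 3, 4 and 7) of cells with the scavenger receptor CD36 on their surface. The CD36-NEG group held 5 libraries (numbers 1, 2, 4, 7 and 8) of cells without it. The sample titles call all 10 wild type (WT), and the labels give no strain or age for them. The protocol describes an intravenous injection of NaIO3, a toxin of the retinal pigment epithelium, at 20 mg/kg, or of PBS alone, and collection of the eyes after 7 days. Which injection the sorted samples received is not in the labels, so treatments were not compared. They also do not say whether the libraries came from separate animals, so p-values measure only the spread between these libraries, which may be technical.

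The mitochondrial ribosome translates the few proteins encoded by mitochondrial DNA, all of which are subunits of the respiratory chain and ATP synthase. Its RNAs are made inside the mitochondrion, whereas every one of its proteins is encoded in the nucleus, made in the cytosol and imported. The small subunit binds the messenger RNA and decodes it, and the large subunit joins the amino acids. Many of the proteins have a counterpart in bacterial ribosomes, and others arose within the mitochondrial lineage. In the unified ribosome nomenclature, proteins with such a counterpart begin with u (universal) or b (bacterial), and those of mitochondria alone begin with m.

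The table showed how these genes ranked in sorted retinal cells, whether their messenger RNAs differed between CD36-POS and CD36-NEG cells, and whether the large and small subunit differed from each other. CD36 sorting was visible in the RNA. Levels are given as CPM, counts relative to the scaled library total, with the SD over 5 libraries. Cd36 stood at 219 ± 39.9 CPM in CD36-POS and 50.3 ± 5.51 CPM in CD36-NEG libraries, and its log2 fold change was 2.12 (SE 0.18). Library totals ran from 5001385 counts in CD36-POS library 1 to 13250289 in CD36-POS library 7. The libraries also differed in Y-linked genes. Their mean log2 CPM was 5.84 to 6.23 in CD36-POS libraries 1, 2 and 3, and 2.26 and 2.36 in libraries 4 and 7. It was 5.70 and 5.86 in CD36-NEG libraries 1 and 2, and 2.96 to 4.14 in libraries 4, 7 and 8. All 9 microglial markers checked (among them P2ry12, Tmem119 and Cx3cr1) were present, with a summed level of 4861 to 9942 CPM in CD36-POS and 3674 to 10033 CPM in CD36-NEG libraries, and 0 of 9 passed edgeR's test (1 at an unadjusted p under 0.05).

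The promoters of these genes are shown for members on which results below turn, since a shared set of factors is known to bind promoters of nuclear genes for mitochondrial proteins: NRF1, the ETS family factor GABP, and YY1. RefSeq windows on build GRCm38.p6, from 250 bases before to 50 after a RefSeq start, could be matched for 68 of the 77 members. RefSeq starts can differ from the gene positions given below, which come from GENCODE. The Mrpl18 window lies wholly within the GENCODE bounds of the gene, and the GENCODE start of Mrps18c lies inside its window, upstream of the RefSeq start. Each sequence is written 5′ to 3′ along the strand of its gene, and capitals mark a match on either strand to one of 4 motifs: CCGGAAG (ETS), AAGATGGCG (YY1), CACGTG (the E-box, bound by Myc among others) and the NRF1 palindrome, whose letters are those in capitals in the Mrpl9 sequence. Mrps18c and Mrpl18 had the smallest p of their subunits, Mrpl9 had the smallest p among members with the NRF1 palindrome, and Mrps11 shares its promoter region with Mrpl46.
Mrps18c, chr5:100798509-100798808, plus strand, an E-box followed by an ETS match: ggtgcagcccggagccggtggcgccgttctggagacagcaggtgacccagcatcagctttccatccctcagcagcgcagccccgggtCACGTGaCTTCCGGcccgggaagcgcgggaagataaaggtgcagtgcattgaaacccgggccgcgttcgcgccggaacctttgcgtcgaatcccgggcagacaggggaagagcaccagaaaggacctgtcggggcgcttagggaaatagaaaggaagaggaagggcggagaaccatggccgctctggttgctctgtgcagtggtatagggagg
Mrpl18, chr17:12916042-12916341, minus strand, an ETS match: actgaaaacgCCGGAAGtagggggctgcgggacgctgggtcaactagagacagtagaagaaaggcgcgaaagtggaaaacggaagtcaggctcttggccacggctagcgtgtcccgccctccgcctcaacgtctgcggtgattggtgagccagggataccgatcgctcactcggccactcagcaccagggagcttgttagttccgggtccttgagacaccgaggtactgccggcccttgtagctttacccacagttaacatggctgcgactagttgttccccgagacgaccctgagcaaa
Mrpl9, chr3:94443086-94443385, plus strand, an NRF1 match: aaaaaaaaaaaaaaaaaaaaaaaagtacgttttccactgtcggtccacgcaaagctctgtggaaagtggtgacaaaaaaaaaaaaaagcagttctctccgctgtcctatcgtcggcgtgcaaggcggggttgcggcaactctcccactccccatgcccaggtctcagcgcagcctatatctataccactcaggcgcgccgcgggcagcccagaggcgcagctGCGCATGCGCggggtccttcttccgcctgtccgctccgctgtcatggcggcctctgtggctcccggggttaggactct
Mrps11, chr7:78782881-78783180, plus strand, a YY1 match: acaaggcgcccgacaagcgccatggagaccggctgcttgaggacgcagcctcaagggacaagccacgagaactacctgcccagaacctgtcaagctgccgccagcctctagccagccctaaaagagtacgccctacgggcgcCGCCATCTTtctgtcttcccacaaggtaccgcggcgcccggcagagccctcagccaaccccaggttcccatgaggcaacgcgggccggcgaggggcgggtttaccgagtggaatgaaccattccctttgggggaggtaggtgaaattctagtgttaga

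Of the 68 member windows, 35.3% (24) held the ETS letters, against 12.3% of all 16012 genes of the table with a window. The YY1 letters were in 11.8% (8) against 2.07%, and the NRF1 letters in 4.41% (3) against 1.39%. With any base allowed at the sixth position of the NRF1 palindrome, the shares were 19.1% (13) and 6.88%. The E-box was in 7.35% (5) against 8.04%. No match to any of the 4 motifs was found in 48.5% (33) of member windows and in 78.5% of all windows, or in 39.7% (27) and 74.9% with the relaxed NRF1 form in place of the strict one. Matches on either strand were counted, and an ETS and a YY1 match can share the bases AAG. These are shares of letters in windows and do not show binding. The window of a neighbouring gene on the opposite strand overlapped that of 20 members (29.4%), against 6.51% of all genes. The 16012 genes include ones with counts too low to be tested, whereas all 77 members were tested. Shares over tested genes alone were not computed. The RefSeq starts of Mrps11 and Mrpl46, a small and a large subunit gene on chromosome 7, lie 42 bases apart. Their windows share 141 bases. Mrpl18 faces Tcp1, which encodes a subunit of the cytosolic chaperonin, with RefSeq starts 238 bases apart. Of the 18 facing genes that are not members, 0 passed edgeR's test, described next, and 2 had an unadjusted p under 0.05. Among all genes tested 7.36% passed and 21.3% had such an unadjusted p.

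No mitochondrial ribosomal protein gene passed the test between CD36-POS and CD36-NEG cells, in either direction (0 of 77; edgeR quasi-likelihood test, adjusted p under 0.05). Among all 11594 genes tested, 2.61% were called higher and 4.74% lower, 7.36% in all. At an unadjusted p under 0.05, 8 of 77 members were higher and 0 lower, against 10.6% and 10.8% of all genes (21.3% in either direction). limma voom called 0 members (11 at an unadjusted p under 0.05), and DESeq2 called 1, Mrps18c, as higher (8 unadjusted). Of all 11594 genes, limma voom called 325 higher and 606 lower (2553 unadjusted). DESeq2 called 544 higher and 766 lower of the same genes (2771 unadjusted). All 77 members passed the filter on low counts, with 39 to 1493 counts per member and library. For every one of the 77 the CD36-POS and CD36-NEG values overlapped, whereas 8.41% of all genes had groups that did not overlap (2.59% with CD36-POS above).

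The precision bounds what could have been missed. The log2 fold changes ran from -0.42 (Mrps35) to 0.79 (Mrpl47), and the 95% confidence interval lay within -1 and 1 (a halving and a doubling) for 71 of 77 members, against 49.0% of all genes. The 6 members whose interval reached past 1 were Mrpl18, Mrpl51, Mrpl47, Mrpl50, Mrps18c and Mrps31. The log2 fold change was above 0 for 51 of 77 members (66.2%), against 51.2% of all genes, and its median was 0.09 over the members and 0.02 over all genes. That count ranged from 43 to 64 when single libraries were left out, with the fewest without CD36-POS library 7 and the most without CD36-POS library 1.

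**Figure D1:**
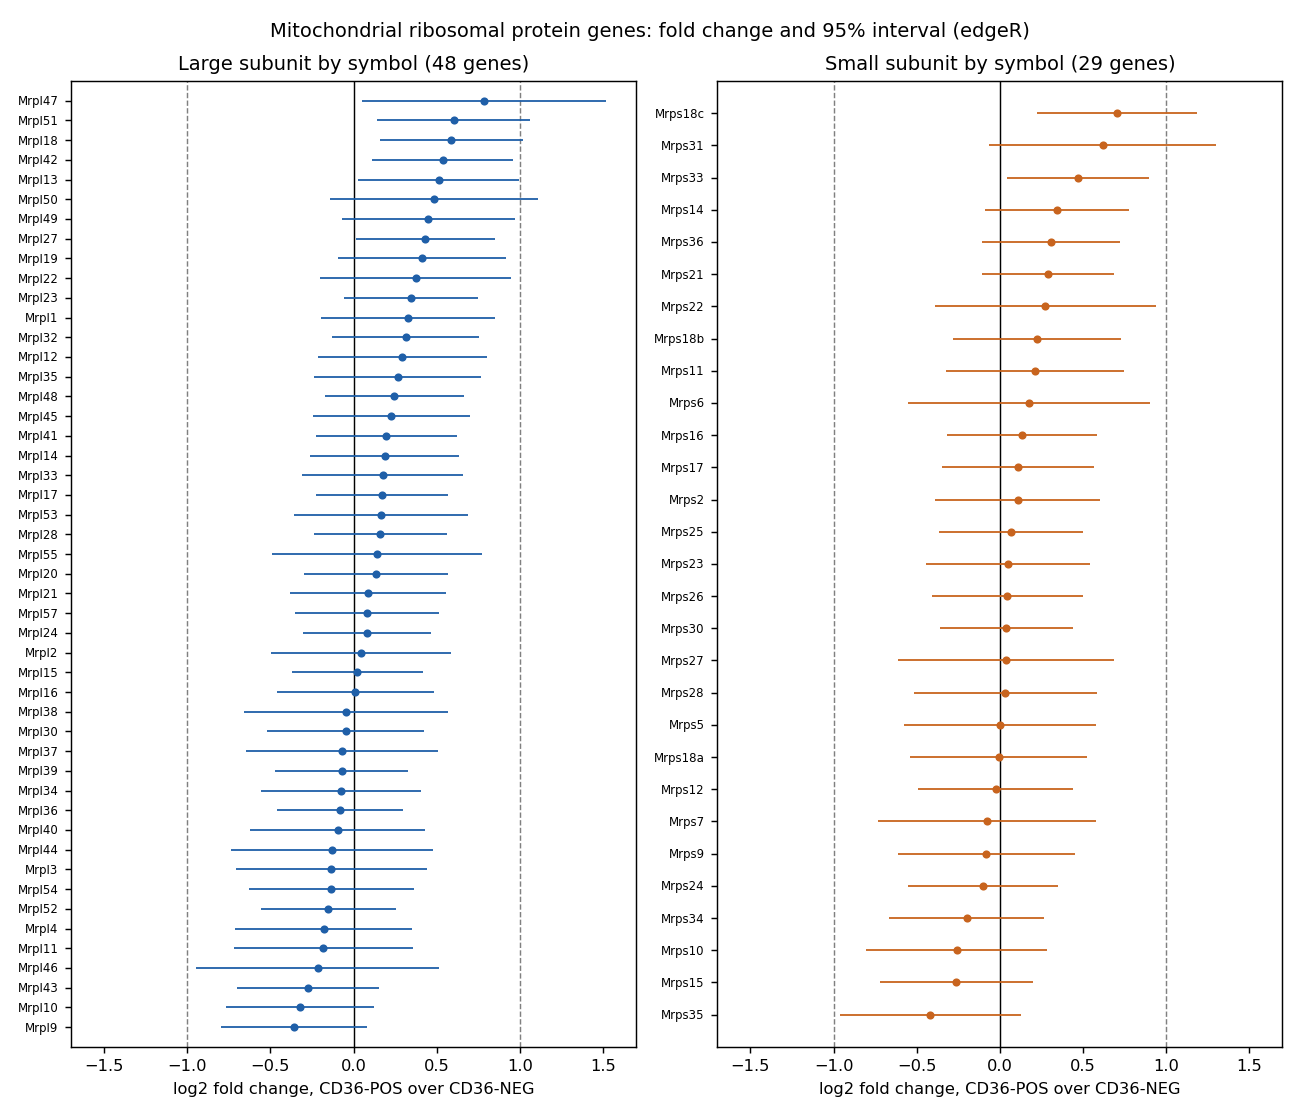
Log2 fold change of CD36-POS over CD36-NEG cells for the 48 large subunit genes (left) and 29 small subunit genes (right), with points for the edgeR estimate, horizontal lines for its 95% confidence interval and dashed lines at -1 and 1. Most intervals cross 0, and 71 of 77 stay within the dashed lines.

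The medians of the subunits were 0.09 apart on the log2 scale, with the large subunit above. By symbol, 31 of 48 large subunit genes had a log2 fold change above 0 (median 0.14), and so had 20 of 29 small subunit genes (median 0.05). Of the 8 members with an unadjusted p under 0.05, 6 were large subunit genes (Mrpl18, Mrpl51, Mrpl42, Mrpl47, Mrpl13 and Mrpl27) and 2 small (Mrps18c and Mrps33). The gap between the medians depended on the libraries. The small subunit median was -0.01 without CD36-POS library 7 and 0.14 without CD36-POS library 1. The large subunit median ran from 0.07 without CD36-POS library 2 to 0.20 without CD36-NEG library 2. With libraries of the same description number as blocks (8 libraries), both medians were 0.03.

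For 3 members the symbol and the structure of the ribosome disagree. In structures of the mammalian mitochondrial ribosome, Mrps30 (mL65) and Mrps18a (mL66) sit in the large subunit. Mrps36 has since been placed in the 2-oxoglutarate dehydrogenase complex of the citric acid cycle. Mrps30 was at 44.2 ± 4.64 CPM in CD36-POS and 43.1 ± 6.18 CPM in CD36-NEG libraries (log2 fold change 0.04), and Mrps18a at 37.4 ± 12.4 and 37.7 ± 4.52 CPM (-0.01). Mrps36 was at 53.9 ± 8.72 and 43.5 ± 7.03 CPM (0.31, 95% interval -0.11 to 0.72). With the subunits drawn by structure, and with Dap3, Ptcd3, Chchd1 and Aurkaip1 added to the small and Gadd45gip1 to the large subunit, the medians were 0.09 over 51 large and 0.08 over 30 small subunit genes. Ict1 of the large subunit was not included in these medians. The 6 proteins of the ribosome outside the symbol rule all failed the test: the small subunit genes Dap3 (log2 fold change 0.10), Ptcd3 (0.42), Chchd1 (0.24) and Aurkaip1 (-0.00), and the large subunit genes Gadd45gip1 (0.01) and Ict1 (-0.14), which encodes a peptidyl-tRNA hydrolase built into the ribosome. None of these 6 had an unadjusted p under 0.05.

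Divided by origin, 22 of 30 large subunit proteins with a bacterial counterpart had a log2 fold change above 0 (median 0.15), and 10 of 20 large subunit proteins of mitochondria alone (median 0.01). In the small subunit the counts were 10 of 16 (median 0.07) and 8 of 10 (median 0.06). None of these classes held a gene past the adjusted threshold with edgeR, and their unadjusted counts were 4, 2, 1 and 1. The order of the large subunit classes did not hold with an offset for transcript GC content and length, described further below. Their medians were then 0.08 (19 of 30 above 0) and 0.12 (12 of 20). Those of the small subunit were 0.11 (11 of 16) and 0.07 (7 of 10).

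The summed level of the 48 large subunit genes was 2530 ± 338 CPM in CD36-POS and 2312 ± 277 CPM in CD36-NEG libraries. In CD36-POS libraries 1, 2, 3, 4 and 7 it was 2076, 2912, 2758, 2308 and 2598 CPM, and in CD36-NEG libraries 1, 2, 4, 7 and 8 it was 2285, 2742, 2390, 2077 and 2066 CPM. The groups overlapped widely, with the lowest CD36-POS library near the lowest CD36-NEG ones. The 29 small subunit genes summed to 1330 ± 180 and 1229 ± 133 CPM, and their libraries fell in a similar order. All 77 genes together took 0.314% to 0.422% of a library's counts.

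The ratio of the large to the small subunit sum was 1.91, 1.93, 1.95, 1.93 and 1.80 in CD36-POS libraries 1, 2, 3, 4 and 7, and 1.89, 1.91, 1.88, 1.87 and 1.85 in CD36-NEG libraries 1, 2, 4, 7 and 8. The means were 1.90 ± 0.063 and 1.88 ± 0.023 (SD, n = 5 each). Their difference of 0.025 was smaller than the SD of the CD36-POS group and slightly larger than that of the CD36-NEG group, and the groups overlapped. CD36-POS library 7 lay below all the others, and the remaining 9 lay between 1.85 and 1.95. Without it the CD36-POS mean was 1.93 ± 0.016 (n = 4) and the difference 0.052, larger than the SD of either group, whereas without CD36-POS library 3 the difference was 0.014. On the log2 scale the mean of the large subunit genes exceeded that of the small by 0.27 ± 0.075 in CD36-POS and 0.23 ± 0.038 in CD36-NEG libraries. All these values follow the symbols, with Mrps30, Mrps18a and Mrps36 in the small subunit. By structure, as above, the large subunit summed to 2656 ± 356 CPM in CD36-POS and 2437 ± 282 CPM in CD36-NEG libraries. The small subunit summed to 1437 ± 206 and 1324 ± 150 CPM. The ratio by structure in each library was not computed.

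**Figure D2:**
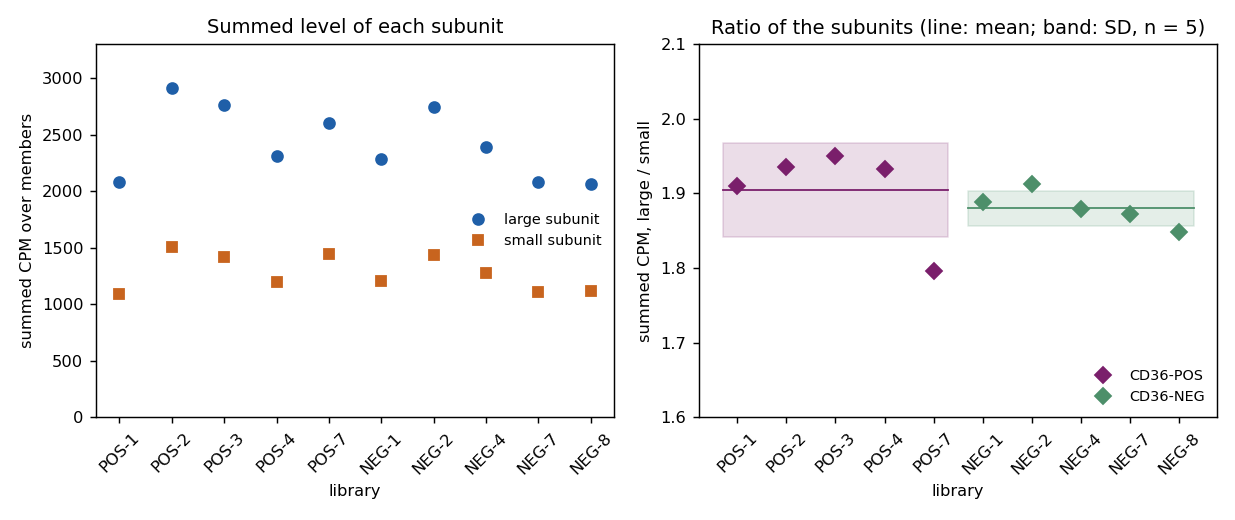
Left, summed CPM of the 48 large (circles) and 29 small (squares) subunit genes in each of the 10 libraries; right, the ratio of the sums in each library, with lines for the group means and bands for 1 SD (n = 5). The sums moved together from library to library, between 2066 and 2912 CPM for the large subunit, and the ratio stayed between 1.80 and 1.95.

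Among large subunit genes, Mrpl18 had the smallest p. It encodes uL18, a protein bound to the large subunit that is also known for its link to the import of the cytosolic 5S RNA. Its level was 118, 113, 111, 72.6 and 118 CPM in CD36-POS libraries 1, 2, 3, 4 and 7, and 84.4, 87.9, 63.7, 50.8 and 68.0 CPM in CD36-NEG libraries 1, 2, 4, 7 and 8. CD36-POS libraries 1, 2, 3 and 7 lay above every CD36-NEG library, and CD36-POS library 4 lay within the CD36-NEG range. The log2 fold change was 0.59 (SE 0.20, edgeR adjusted p = 0.0956). Without CD36-POS library 4 it was 0.70 and passed (edgeR adjusted p = 0.0446). On GRCm38, Mrpl18 lies on chromosome 17 from 12911349 to 12916345 on the minus strand, and 141 bases of its exons overlap exons of Tcp1 on the other strand. The labels do not say whether counting used strand, so reads from such overlaps cannot be told apart, here and in 27 members in all.

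Mrpl51 (mL51, a protein of mitochondria alone) was at 60.8, 107, 107, 66.7 and 68.8 CPM in the CD36-POS libraries, in the same order, and at 62.1, 63.6, 56.5, 43.0 and 44.8 CPM in the CD36-NEG libraries. CD36-POS libraries 2 and 3 stood far above the rest, and library 1 lay within the CD36-NEG range. The log2 fold change was 0.60 (SE 0.22, edgeR adjusted p = 0.111). Mrpl42 (mL42) was at 117, 132, 142, 96.3 and 85.8 CPM against 96.7, 96.6, 71.0, 64.2 and 66.9 CPM. CD36-POS libraries 1, 2 and 3 were above every CD36-NEG library, and libraries 4 and 7 were not (log2 fold change 0.54, SE 0.20, edgeR adjusted p = 0.124). With an offset for transcript GC content and length, fitted in each of these libraries over the tested genes, the Mrpl42 value was 0.32.

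Mrpl47 encodes uL29, which sits near the exit of the tunnel through which new proteins leave the ribosome. It was at 16.4, 30.1, 16.5, 8.45 and 16.8 CPM in CD36-POS and 10.6, 12.9, 8.08, 9.08 and 10.5 CPM in CD36-NEG libraries. Its log2 fold change, 0.79 (SE 0.35, edgeR adjusted p = 0.198), was the highest among members. CD36-POS library 2 held the highest value, and library 4 lay at the low end of the CD36-NEG range. Mrpl47 exons overlap those of Ndufb5 by 616 bases and of Actl6a by 452, both on the opposite strand. Mrpl13 (uL13) had 60.5 ± 14.8 CPM in CD36-POS and 42.4 ± 10.6 CPM in CD36-NEG libraries, a value of 0.51 on the log2 scale. For Mrpl27 (bL27) the levels were 55.1 ± 7.05 and 40.9 ± 8.07 CPM (0.43).

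Among small subunit genes, Mrps18c (bS18, the one of 3 Mrps18 genes whose protein takes the bacterial position) had the smallest p. It was at 61.2, 68.0, 66.8, 42.1 and 40.0 CPM in CD36-POS libraries 1, 2, 3, 4 and 7, and at 36.5, 46.5, 31.7, 27.6 and 28.3 CPM in CD36-NEG libraries 1, 2, 4, 7 and 8. CD36-POS libraries 1 to 3 lay above every CD36-NEG library, and libraries 4 and 7 lay below CD36-NEG library 2. Within each group, the libraries with high Y-linked levels held the higher values, for Mrps18c as for Mrpl42. These were CD36-POS libraries 1 to 3 and CD36-NEG libraries 1 and 2. The cause was not tested. The log2 fold change was 0.70 (SE 0.23, edgeR adjusted p = 0.0742). It passed with DESeq2 (adjusted p = 0.0396) and, in edgeR, without CD36-POS library 7 (adjusted p = 0.0457). With the GC and length offset it was 0.39, with an edgeR adjusted p of 0.213. Mrps18c lies on chromosome 5 from 100798627 to 100804471 on the plus strand.

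The other Mrps18 genes, Mrps18a (-0.01) and Mrps18b (0.22), whose proteins occupy other places in the ribosome, also did not pass edgeR's test. Mrps33 (mS33) was at 105, 106, 137, 81.9 and 106 CPM in CD36-POS and 67.3, 104, 89.1, 61.4 and 64.5 CPM in CD36-NEG libraries. All CD36-POS libraries but library 4 were above every CD36-NEG library, of which library 2 came nearest (log2 fold change 0.47, SE 0.20, edgeR adjusted p = 0.187). With the GC and length offset, the Mrps33 value was 0.15.

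Mrps31 (0.62, SE 0.32) and Mrps14 (uS14; 0.34, interval -0.09 to 0.78) followed in the order of p. Mrps35 (mS35) had the lowest log2 fold change of all members, -0.42 (interval -0.96 to 0.12). It was at 22.1, 26.9, 31.0, 14.2 and 35.8 CPM in CD36-POS and 36.6, 43.0, 34.3, 30.4 and 29.6 CPM in CD36-NEG libraries. CD36-POS libraries 1, 2 and 4 were below every CD36-NEG library, and libraries 3 and 7 were within their range. Mrpl9 (bL9), whose promoter held the NRF1 letters, had the lowest value among large subunit genes, at 36.6 ± 8.31 against 47.1 ± 6.69 CPM (-0.36, interval -0.80 to 0.08).

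**Figure D3:**
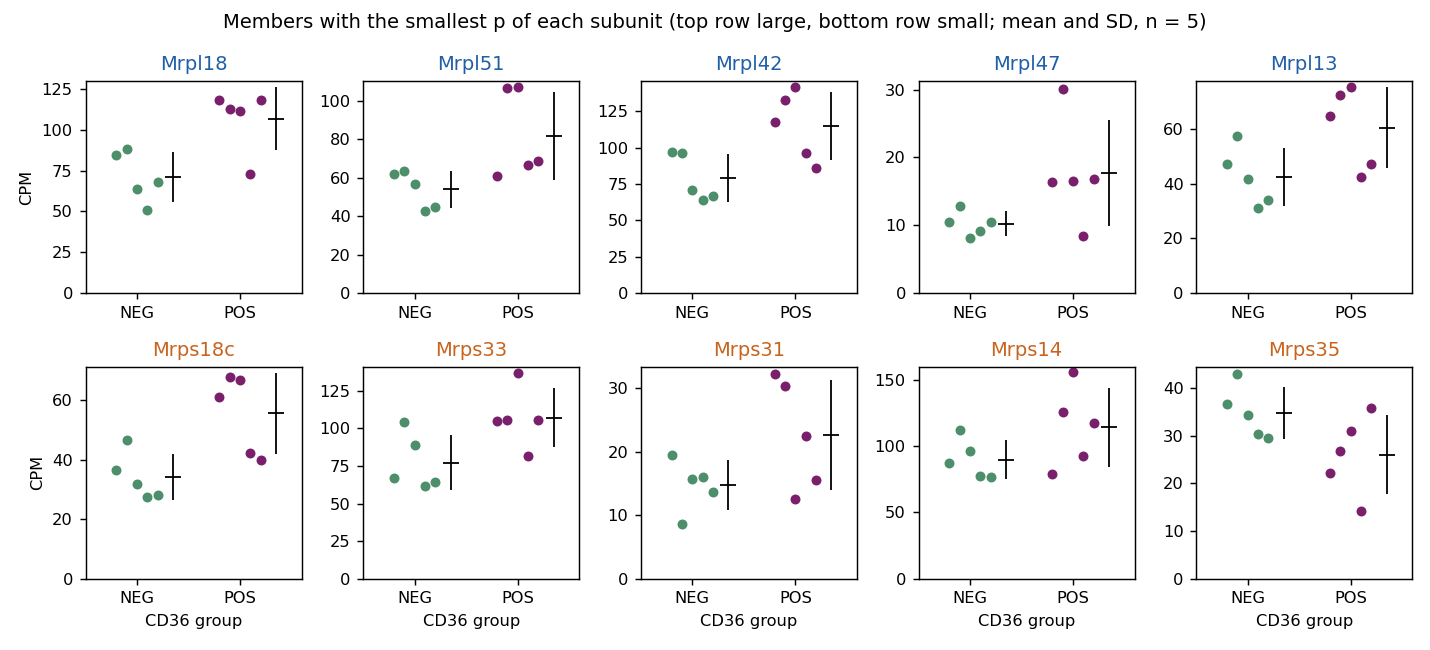
CPM in each library (points) with the mean and SD of each group (n = 5, bars at the side) for the 5 large subunit genes (top) and 5 small subunit genes (bottom) with the smallest p. The CD36-POS and CD36-NEG points overlap in all 10 panels, and Mrps35 is the only one of the 10 with a lower mean in CD36-POS.

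Levels differed much more between genes than between groups. Per kilobase of transcript, the highest large subunit genes were Mrpl33 (bL33) at 180 CPM per kb, Mrpl52 (mL52) at 176 and Mrpl42 at 147, as means over the 10 libraries. The lowest were Mrpl1 (uL1, of the stalk where spent tRNA leaves) at 8.25, Mrpl19 at 6.02 and Mrpl47 at 4.14 CPM per kb. In the small subunit, Mrps21 at 166, Mrps33 at 129 and Mrps15 at 81.5 CPM per kb were highest. Mrps25 at 8.75, Mrps35 at 7.30 and Mrps5 at 4.83 CPM per kb were lowest. The values depend on the transcript length assumed, the median over annotated coding transcripts. With the length of the principal transcript the same genes were highest and lowest, though Mrps33 was then at 83.3 CPM per kb.

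From library to library most members moved with the rest. The correlation of a member's log2 CPM with the mean of the other members over the 10 libraries had a median of 0.52, which is a description of points that share library and depth. Mrps17 (uS17) followed the mean most closely at 0.92, ahead of Mrps11 (uS11) at 0.91 and Mrpl35 (bL35) at 0.90. Mrps17 was at 41.9, 88.5, 68.2, 68.8 and 85.1 CPM in CD36-POS and 58.6, 83.5, 69.4, 60.0 and 56.2 CPM in CD36-NEG libraries, lowest in CD36-POS library 1. At the other end were Mrps2 (-0.10), Mrps31 (-0.30) and Mrps6 (-0.31). Mrps6 (bS6) was highest in CD36-POS library 1, at 23.1 CPM, and lowest in CD36-POS library 3, at 5.59 CPM, and part of its exons overlap those of Slc5a3 on the same strand.

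CD36-POS library 1, which also had the lowest total count, held the lowest value of the 10 libraries for 28 members. CD36-NEG library 7 held it for 20 and CD36-NEG library 8 for 10. CD36-POS libraries 2 and 3 each held the highest value for 17 members, and CD36-NEG library 2 for 15. Mrpl46 and Mrps11, which share a promoter region, were both lowest in CD36-POS library 1: Mrpl46 was at 7.63 CPM there and at 16.1 to 40.6 CPM in the other 9, and Mrps11 at 15.4 and at 16.9 to 32.9 CPM. Their exons also overlap by 173 bases on opposite strands, so the same reads may have been counted for both.

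Fold changes of the members varied with the base composition of their transcripts. Over the 77 members the correlation of log2 fold change with GC content was -0.43, and over 11155 tested genes with a value it was -0.21. Genes are not independent replicates, and no p is given. Of the 38 members under the median GC content, 31 had a log2 fold change above 0 (median 0.17), against 20 of the 39 at or above it (median 0.03). The GC and length offset was fitted to the tested genes of these same libraries, so it removes such a trend by design. With it the correlation over the members was 0.09, and these counts were 22 of 38 and 28 of 39. The medians of the large and small subunit were then 0.09 and 0.10. Over all 77 members the count above 0 hardly moved, at 50 with the offset. Transcript length showed no such relation (correlation 0.02).

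**Figure D4:**
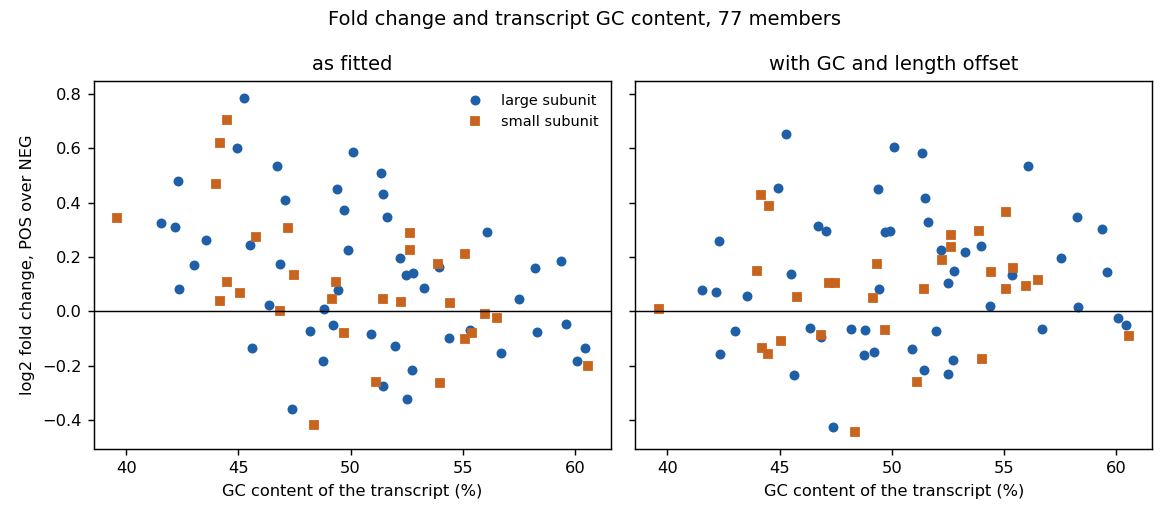
Log2 fold change of each of the 77 members against the GC content of its transcript in percent, as fitted (left) and with an offset for GC content and length in each library (right); circles are large and squares small subunit genes. On the left the low-GC members lie mostly above 0 (correlation -0.43). On the right the correlation is 0.09, with an offset that was fitted to these libraries to remove such a trend.

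Genes that work with the ribosome were counted from lists of their own. The shares over all genes, for these lists and those further below, were 2.61% called higher and 4.74% lower with edgeR. At an unadjusted p under 0.05 they were 10.6% and 10.8%, so 1 or 2 calls in a short list are near these shares. DESeq2 called 544 of the 11594 genes higher and 766 lower. Of 18 tested mitochondrial translation factors and RNA-binding proteins, 1 rose and 0 fell with edgeR (3 higher and 1 lower unadjusted; DESeq2 called 1 in each direction), and the median log2 fold change was 0.00. That gene was Slirp, which with Lrpprc stabilizes mitochondrial messenger RNAs. It was at 94.9, 88.4, 119, 69.8 and 68.1 CPM in CD36-POS libraries and at 45.7 ± 8.25 CPM in CD36-NEG libraries, above all of which every CD36-POS library lay (log2 fold change 0.95, SE 0.21, edgeR adjusted p = 0.00867). Of 22 assembly factors 0 passed with edgeR (2 at an unadjusted p under 0.05, 1 in each direction; median 0.05). Of 20 genes for mitochondrial aminoacyl-tRNA synthesis, 0 passed with edgeR (2 unadjusted, 1 in each direction; median -0.06). Of 11 genes for mitochondrial DNA replication and transcription 1 rose, Ssbp1, the mitochondrial single-strand DNA-binding protein (141 ± 13.6 CPM in CD36-POS and 93.7 ± 11.2 CPM in CD36-NEG libraries, 0.59 on the log2 scale, edgeR adjusted p = 0.0351).

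Among 51 nuclear genes for complex I and ATP synthase subunits, the complexes into which many products of this ribosome are built, 2 rose and 0 fell with edgeR, against 2.61% and 4.74% of all genes. At an unadjusted p under 0.05, 13 were higher and 0 lower, against 10.6% and 10.8% of all genes. DESeq2 called 5 higher and limma voom 3, against 544 and 325 of the 11594 genes tested. The median log2 fold change was 0.22, and 43 of 51 were above 0, against 51.2% of all genes. The genes that rose were Atp5k (0.80) of ATP synthase and Ndufa4 (0.67), which was once counted with complex I and is now placed in complex IV. Of 20 genes for import and the outer membrane 0 passed with edgeR (1 unadjusted; median 0.08). The mitochondrially encoded genes themselves were not analysed here.

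Of 10 regulators of mitochondrial gene expression, 0 passed edgeR's test (2 unadjusted, 1 in each direction). The genes of the factors whose motifs were searched had log2 fold changes of -0.20 (Nrf1), 0.25 (Gabpa), 0.22 (Gabpb1), 1.11 (Yy1, edgeR adjusted p = 0.0633) and -0.69 (Myc, edgeR adjusted p = 0.116). Yy1 was at 95.6 and 92.7 CPM in CD36-POS libraries 1 and 3, which had the lowest total counts. It was at 26.4 to 38.0 CPM in the other 3 CD36-POS libraries, against 21.9 to 31.9 CPM (25.9 ± 4.64) in CD36-NEG libraries. Members with the ETS letters had a median log2 fold change of 0.17 (24 genes), and those without 0.11 (44 genes). For the YY1 letters the medians were 0.01 with (8 genes) and 0.13 without (60 genes).

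The 81 tested proteins of the cytosolic ribosome, which makes the mitochondrial ribosomal proteins, had 0 calls with edgeR (2 higher and 8 lower unadjusted) and a median of -0.07. Among all genes 10.6% were higher and 10.8% lower at an unadjusted p under 0.05. Other groups did differ between CD36-POS and CD36-NEG cells. Of 24 cell cycle genes, 12 rose and 0 fell (median 0.94), against 2.61% and 4.74% of all genes. Among those that rose were Cdk1 (1.59), which drives entry into mitosis, and Top2a (1.45). The summed level of the cell cycle genes was 3582 to 6570 CPM in CD36-POS and 2741 to 4282 CPM in CD36-NEG libraries. Markers of other leukocytes had lower summed levels in CD36-POS libraries. The neutrophil markers summed to 84.7 to 194 CPM in CD36-POS and 343 to 880 CPM in CD36-NEG libraries, and the T and NK cell markers to 1.24 to 10.4 and 50.7 to 347 CPM. Of these, 9 of 12 and 6 of 13 in the table passed the filter on low counts, and some could pass only through the CD36-NEG libraries, so calls among them (8 and 6 lower) are partly set by the filter. Of 12 dendritic cell markers 11 fell (38.4 to 102 against 762 to 1135 CPM), and of 12 monocyte markers 9 fell (292 to 782 against 1038 to 1962 CPM). Some of these may also have passed the filter only through the CD36-NEG libraries, so their calls may be partly set by it. Among all genes 4.74% were called lower. Of 12 photoreceptor markers 2 fell (130 to 1068 against 431 to 2701 CPM). Of 8 Müller glia and astrocyte markers 6 were tested, 1 rose and 1 fell (9915 to 30631 against 15905 to 21535 CPM, most of it Apoe, which microglia also express). Retnlg, G0s2, Ngp and Ly6g of the neutrophil list and Prf1 of the T and NK list had no counts in any CD36-POS library. The part of these other cells in the values of the ribosomal protein genes was not tested, and in bulk libraries fewer cells of a type cannot be told apart from less RNA per cell.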

How the data were processed

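Messenger RNA of 10 sorted samples was measured by RNA sequencing. The deposited table holds expected counts per gene symbol (91.9% of values whole, not normalized). The submitters' processing notes name fastp 0.18.0, Bowtie2 2.2.8, HISAT2 2.1.0, StringTie 1.3.1 and mm10; the counting program and its use of strand are not given in the sources used here. Of 22008 lines, 8 damaged and 131 repeated ones were dropped, and 2 members (Mrpl22 and Mrpl32) lay on lines at the edge of the 1024-byte blocks where damage occurred. Single-cell and spatial data were not analysed here.

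Expected counts were rounded, kept where filterByExpr allowed (minimum count 10), and TMM-scaled. The quasi-likelihood test of edgeR 4.0.16 (glmQLFit, glmQLFTest; R 4.3.3) compared CD36-POS with CD36-NEG, with Benjamini-Hochberg adjustment over 11594 genes. CPM use TMM-scaled library sizes, and log2 CPM a prior count of 2. Alternatives were DESeq2 1.42.0, limma 3.58.1 (voom with quality weights), other scalings and filters, covariates, a replicate block, an offset for GC content and length (splines with 5 degrees of freedom) and each library left out. The test was checked on simulated counts. Replicates differed by more than sampling noise (chi-square per degree of freedom 22.1 to 109). Gene positions, lengths and GC content come from GENCODE annotation of GRCm38.

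Members and gene lists were chosen with earlier results of these data known. One marker gene was left out of its list and is not reported here. Members were named if past the threshold, among the 5 of a subunit with the smallest p or the 3 with the highest or lowest CPM per kb, if the symbol names another subunit than the structure does, or among the 3 with the highest or lowest correlation with the other members. Mrpl27, Mrpl50, Mrps18b, Mrpl9 and Mrpl46 were named after their values were seen, as were the marker genes without counts. Motif letters were searched in RefSeq promoter windows of GRCm38.p6, on both strands.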

Additional observations from a re-analysis of the deposited data

Results flagged for a closer look

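In the 26 named members and the subunit measures, 60 groups of 5 libraries were checked for 1 library lying far from the other 4, and 3 were found. Chance gives about 1 in 20 groups. Mrpl18 in CD36-POS library 4 was at 72.6 CPM, against 111 to 118 CPM in the other 4 CD36-POS libraries. Mrpl19 in CD36-POS library 3 was at 44.6 CPM, against 29.1 to 33.5 CPM in the others. The ratio of the large to the small subunit sum in CD36-POS library 7 was 1.80, against 1.91 to 1.95 in the others.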

How the results depend on the processing

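No member was called lower under any alternative run. Calls of 1 higher member appeared for the small subunit with the DESeq2 Wald test, when detected genes per library or Y-linked expression entered the model (Mrps18c each time, adjusted p = 0.0396, 0.0479 and 0.0229). For the large subunit 1 higher member (Mrpl42, adjusted p = 0.0436) appeared in that last model. Leaving out single libraries gave 0 to 1 higher calls in each subunit, Mrpl18 without CD36-POS library 4 and Mrps18c without CD36-POS library 7. The median log2 fold change then ran from 0.07 to 0.20 for the large and from -0.01 to 0.15 for the small subunit. The large minus small difference in level between the groups (0.04) ran from 0.01 to 0.06. Members at an unadjusted p under 0.05 numbered 4 to 12. Without CD36-POS libraries 1 and 3 together, the shallowest, 0 members were called with edgeR (7 unadjusted). A split of the libraries by Y-linked level was chosen after seeing the data. In the 5 with low levels (CD36-POS 4 and 7 and CD36-NEG 4, 7 and 8), the small subunit median was 0.27 (large 0.17). In the 5 with high levels it was -0.09 (large -0.01). The labels do not say that libraries with the same number are pairs, so the main test did not pair them. Deviations of same-number libraries had correlations of 0.03 to 0.13 by the description labels and -0.02 to 0.13 by title. No other pairs were computed for comparison, so these values do not settle whether the numbers are pairs. With the replicate block 0 members were called (smallest adjusted p 0.219 over 8 libraries by description, 0.0602 by title), with 2 and 7 at an unadjusted p under 0.05. By description the large and small subunit medians were then 0.03 each, and 43 members had a log2 fold change above 0. By title the medians were 0.12 and 0.06, and 48 members were above 0. Of the values of single named members, 618 kept their direction and side of the threshold or were not called either way, and 6 became called. The causes were not tested. Each member had 39 or more counts in each library, and the part of depth in the spread between libraries was not tested.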
